A study of Homo sapiens with 4 samples.

Results

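The genes described here belong to the Hippo pathway, as coactivators, DNA-binding factor, targets or upstream regulators: CCN1, CCN2, ANKRD1, AMOTL1, AMOTL2, AJUBA, LATS2, YAP1, TEAD1 and WWTR1. Of these, AMOTL1 and AJUBA are counted below as upstream regulators and not in the signature of YAP targets. Every probe set that the platform annotation assigns to 1 of these 10 genes was taken, which gave 26 of the 54613 probe sets outside the controls; none of the 26 also names another gene. The array names 19775 genes in all. The cells were M14, a long-established melanoma line, and each stable line had been sorted for eGFP, which both plasmids encode. The ARHGAP8 line carries pIRES2 with the ARHGAP8 coding region, FLAG-tagged and in a variant that lacks 1 exon, and the other line carries pIRES2 alone. Both were kept under G418 and harvested after 4 days, either embedded in growth factor-reduced Matrigel (3D) or before confluence on collagen-coated plastic (2D). The labels do not say whether a line is a clone or a pool. Each combination went onto 1 array, 4 in all, and this number limits the precision of every value.

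YAP1 and WWTR1 (the protein also called TAZ) are coactivators without a DNA-binding domain of their own. They enter the nucleus and act mainly through TEAD factors, and are held back when LATS kinases phosphorylate them. Cell spreading, actin tension and a stiff support are known to favour the nuclear form, while crowding and a soft support favour the cytoplasmic form. CCN1 and CCN2, which encode secreted matricellular proteins, ANKRD1, a nuclear ankyrin repeat protein, and AMOTL2, a scaffold that binds YAP1, are commonly used readouts. LATS2 and AMOTL2 are also negative regulators of the pathway that they are targets of.

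TEAD factors recognise the MCAT element, whose core is GGAATG or, on the opposite strand, CATTCC. The core was sought on both strands in the 250 bases before each transcript start in the RefSeq promoter table (GRCh38.p14), in which 11.9% of 35116 promoters held it. The table held 8 of the 10 genes with 11 promoters, all but CCN1 and TEAD1. The core was found in 5 of the 11, those of CCN2, ANKRD1 and YAP1 and 1 of a pair each for AMOTL2 and AJUBA. CCN2 held 3 copies, beginning 169, 104 and 95 bases before the start, and 3 or more were found in 0.0826% of all promoters. ANKRD1 held 2, beginning 220 and 128 bases before the start. The windows below are shown because CCN2 and ANKRD1 are the pathway's standard reporters, AMOTL2 is a member that passed the culture test, and PTPN14, a phosphatase that binds YAP1, is a pathway gene outside the 10 that passed it. Of the other genes that passed, AMOTL1 and the pathway genes FRMD6 and MAP4K4 held 0 copies in their windows, and CCN1 was not in the promoter table. The windows shown therefore do not stand for all genes that passed. Capitals mark the core. The windows are chr6:131951373-131951622 for CCN2, chr10:90921088-90921337 for ANKRD1, chr1:214551603-214551852 for PTPN14 and chr3:134374499-134374528 for AMOTL2, all on the minus strand of GRCh38.p14. A match of letters is a description and does not show binding.
CCN2: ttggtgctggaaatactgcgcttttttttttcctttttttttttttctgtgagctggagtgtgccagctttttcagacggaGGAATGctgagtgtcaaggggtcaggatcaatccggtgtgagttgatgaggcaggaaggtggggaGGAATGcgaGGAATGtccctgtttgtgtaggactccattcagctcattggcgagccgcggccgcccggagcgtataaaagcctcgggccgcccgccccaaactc
ANKRD1: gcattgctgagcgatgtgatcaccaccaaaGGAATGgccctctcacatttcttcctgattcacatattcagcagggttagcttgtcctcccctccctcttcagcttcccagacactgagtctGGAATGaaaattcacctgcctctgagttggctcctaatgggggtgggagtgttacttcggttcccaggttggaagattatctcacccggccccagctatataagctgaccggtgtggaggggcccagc
PTPN14: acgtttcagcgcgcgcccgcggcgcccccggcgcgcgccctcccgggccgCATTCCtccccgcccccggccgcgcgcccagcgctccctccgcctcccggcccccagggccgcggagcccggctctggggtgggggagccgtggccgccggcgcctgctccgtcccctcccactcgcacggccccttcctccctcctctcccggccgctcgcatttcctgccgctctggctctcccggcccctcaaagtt
AMOTL2: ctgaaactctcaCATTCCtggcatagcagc

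Signals are the authors' deposited MAS5 intensity values on a linear scale, and a signal below 72.3, the median of all scaled values, was treated as at the floor. Of 8 melanocyte lineage genes, 6 (MITF, MLANA, TYR, TYRP1, SOX10 and S100B) were above the floor on all 4 arrays, PMEL was above it on none, and no probe set names DCT alone. Of 17 markers of keratinocytes, fibroblasts, endothelium and leukocytes, 6 were above the floor on all arrays (KRT10, COL1A1, COL1A2, DCN, PECAM1 and CD79A) and 9, KRT5, KRT14, VWF and PTPRC among them, on none. The ARHGAP8 3D array stood apart in its control probe sets, with a median 18S ribosomal RNA signal of 626 against 27.7 to 49.4 on the other 3 arrays. The ratio of 3' to 5' ACTB signals, a reading of RNA integrity, also moved with culture, at 1.32 and 1.23 in 3D and 1.05 and 1.10 in 2D (ARHGAP8 line and empty-vector line in that order). For GAPDH the gap had the same direction and was much smaller. Its ratio in the ARHGAP8 line read 0.925 in gel against 0.899 on plastic, and in the empty-vector line 0.901 against 0.874. Melanocyte lineage transcripts moved with culture and line as well. Their signals summed to 8495 and 8774 in 3D, against 5169 and 7918 in 2D (ARHGAP8 line and empty-vector line in that order), lowest on the ARHGAP8 2D array. Of their 11 tested probe sets 8 were higher in 3D in both lines and 2 lower in both, beside 32.8% and 28% of all tested probe sets. The culture test passed 2 of the 11 as higher in 3D and 1 as lower, beside 1.63% and 1.87% of all. The median log2 ratio was 0.65, at 1.05 in the ARHGAP8 line and 0.17 in the empty-vector line. Lower in the ARHGAP8 line in both cultures were 8 of the 11 and higher in both 1, beside 25.4% and 24.5% of all. That median was -0.49, at -0.11 in 3D and -0.77 in 2D. The part of any of these in the values below was not tested.

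**Figure D1:**
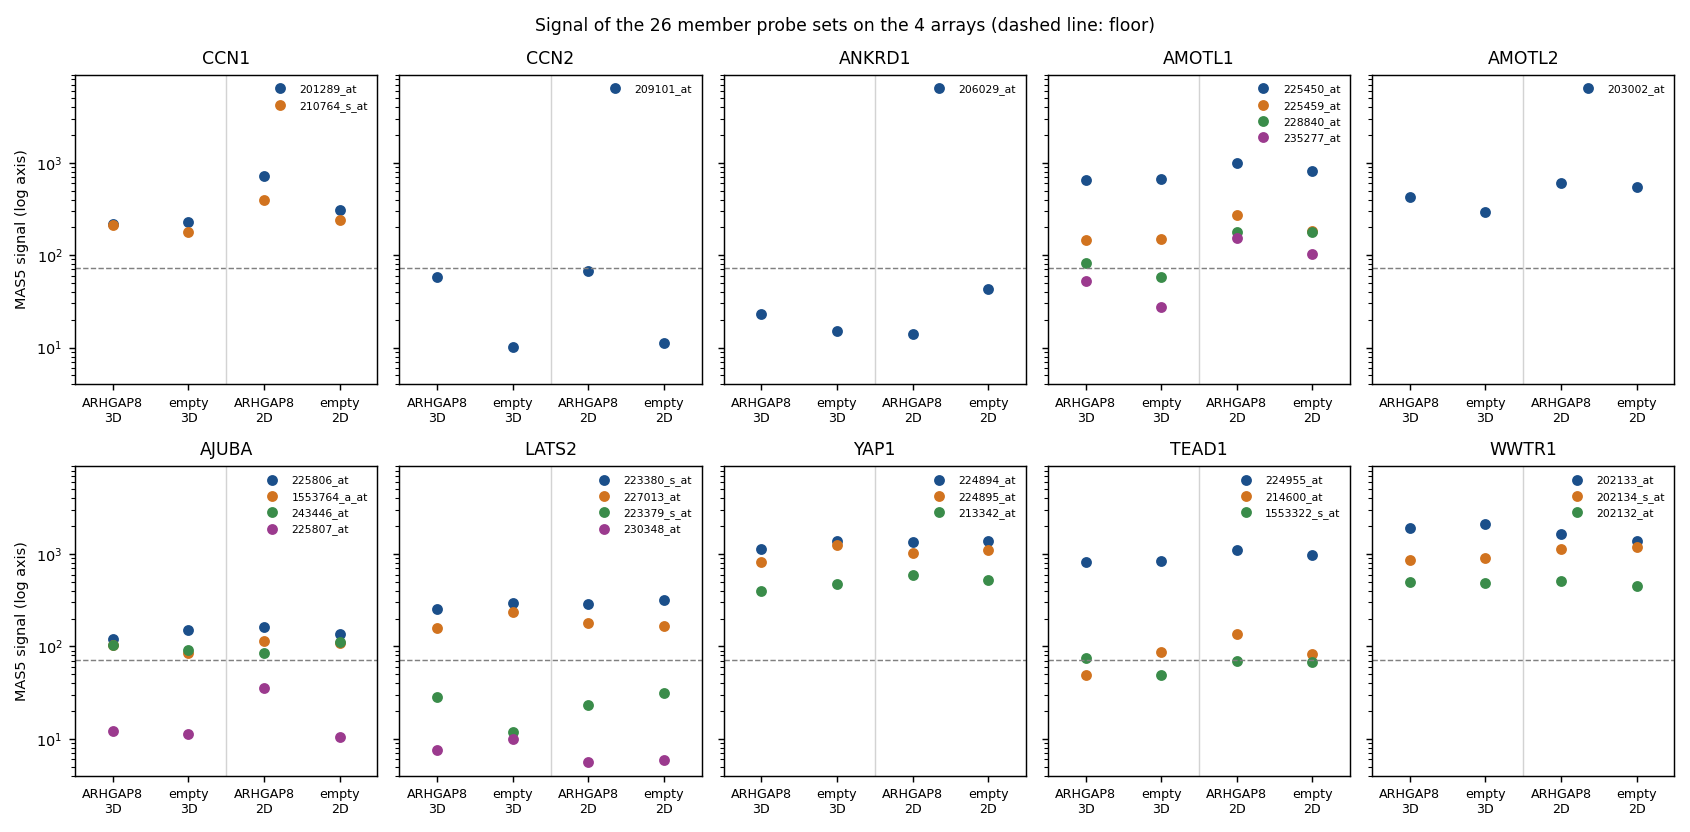
MAS5 signal (log axis) of each member probe set on the 4 arrays, 1 panel per gene and 1 colour per probe set, with 3D arrays left of 2D arrays and the floor of 72.3 as a dashed line. CCN1, AMOTL1 and AMOTL2 sit lower on both 3D arrays than on both 2D arrays, CCN2 and ANKRD1 lie below the floor throughout, and YAP1 and WWTR1 lie far above it.

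The first comparison asked how the pathway's genes differed between culture in gel and culture on plastic. CCN1, AMOTL1 and AMOTL2 passed as lower in 3D, each in 1 probe set, and no member probe set passed as higher. That is 3 of the 20 member probe sets tested, where 1.87% of all passed as lower and 1.63% as higher. CCN1 was down 3.31-fold in the ARHGAP8 line and 1.36-fold in the empty-vector line, and AMOTL2 was down 1.45-fold and 1.86-fold. The coactivators YAP1 and WWTR1, the factor TEAD1, the kinase gene LATS2 and the adaptor gene AJUBA had no probe set past the test. CCN2 and ANKRD1 could not be read. These calls depend on the processing: CCN1 and AMOTL2 each passed under 2 of the 9 other settings that fitted the probe set, and no member passed after cyclic loess normalization, without a filter on low signals or with the mean of probe sets per gene. The test was an additive model of culture and plasmid in limma, fitted on 28651 probe sets, with an adjusted p under 0.05 as the threshold.

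CCN1 encodes a secreted protein that binds integrins, and its probe set 201289_at read 218 on the ARHGAP8 3D array and 227 on the empty-vector 3D array, against 719 on the ARHGAP8 2D array and 309 on the empty-vector 2D array. Both 3D arrays lay below both 2D arrays, and the ARHGAP8 2D array lay far above the other 3. The log2 ratio of 3D over 2D was -1.72 in the ARHGAP8 line and -0.45 in the empty-vector line. Over both lines CCN1 fell by 1.09 ± 0.26 on the log2 scale (moderated SE, 4 arrays; limma, Benjamini-Hochberg adjusted p 0.0310). This SE, and the adjusted p with it, draws mostly on other probe sets of like signal. The wide gap between the line ratios of -1.72 and -0.45 enters the SE as error, through 1 residual degree of freedom beside 13.9 prior ones. In bulk RNA of a culture, fewer cells with the transcript and less transcript per cell cannot be told apart. Without the ARHGAP8 2D array or the ARHGAP8 3D array only the empty-vector ratio of -0.45 remains, and without either empty-vector array only the ARHGAP8 ratio of -1.72. The other probe set, 210764_s_at, read 213 and 179 in 3D and 390.5 and 240.4 in 2D (ARHGAP8 line and empty-vector line in that order). It kept the same separation of cultures with a smaller gap, a log2 ratio of -0.65 ± 0.23, and missed the threshold (limma, adjusted p 0.146).

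CCN2, the close relative of CCN1 whose promoter is shown above, has 1 probe set on the array. Its signals were 58.0 and 66.8 in the ARHGAP8 line in 3D and in 2D, and 10.2 and 11.3 in the empty-vector line in 3D and in 2D. All 4 are below the floor, so no fold is given. ANKRD1, a gene of striated muscle that YAP1 also induces in cultured cells, read 23.3 and 15.1 in 3D against 13.98 and 43.0 in 2D (ARHGAP8 line and empty-vector line in that order). It was below the floor on every array too.

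AMOTL2 belongs to the angiomotin family, scaffolds that tether YAP1 at junctions and actin and promote its phosphorylation. Probe set 203002_at read 422 on the ARHGAP8 3D array and 293 on the empty-vector 3D array, against 609 and 545 on the ARHGAP8 and empty-vector 2D arrays. The cultures did not overlap. AMOTL2 fell by 0.71 ± 0.18 on the log2 scale (moderated SE, 4 arrays), from ratios of -0.53 in the ARHGAP8 line and -0.89 in the empty-vector line, and its adjusted p of 0.0466 in limma was close to the threshold.

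AMOTL1, a second angiomotin family gene, has 4 probe sets, and all 4 were lower on each 3D array than on either 2D array. The share of all probe sets separated in this way was not counted, so separation of the cultures is only described, here and for the other genes. The weaker condition, lower in 3D in both lines, was met by 28% of all tested probe sets. The 4 probe sets read the same gene. The brightest AMOTL1 probe set, 225450_at, read 653 and 659 in 3D against 994 and 823 in 2D (ARHGAP8 line and empty-vector line in that order). Its log2 ratio was -0.46 ± 0.17 and missed the threshold (limma, adjusted p 0.154). Probe set 225459_at read 144 and 151 in 3D against 270.4 and 184 in 2D, a log2 ratio of -0.60 ± 0.27 that did not pass either. Probe set 228840_at read 82.1 and 58.0 in 3D against 179 and 177 in 2D. It fell by 1.21 ± 0.26 on the log2 scale with an adjusted p of 0.0186 in limma, a change that is bounded by the floor on the empty-vector 3D array, where it was at least 2.45-fold lower. Probe set 235277_at read 52.8 and 27.6 in 3D, both below the floor, against 154 and 103 in 2D, and was at least 2.13-fold lower in the ARHGAP8 line and at least 1.43-fold lower in the empty-vector line. It had entered the test only through its 2D signals, and at an adjusted p of 0.0834 in limma it did not pass. So the AMOTL1 probe set that passed is a dim one, and the probe sets agreed on direction and not on size.

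LATS2 encodes a kinase that inactivates YAP1 and WWTR1. Of its 4 probe sets, 223379_s_at and 230348_at were below the floor on all arrays. Probe set 223380_s_at read 254 and 299 in 3D against 287 and 321 in 2D (ARHGAP8 line and empty-vector line in that order), and the cultures overlapped. Its log2 ratio was -0.14, with a 95% interval of -0.58 to 0.30. The remaining probe set, 227013_at, had a log2 ratio of 0.18, from ratios of -0.16 in the ARHGAP8 line and 0.51 in the empty-vector line, so the lines went opposite ways.

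AJUBA encodes a LIM-domain adaptor that binds LATS kinases at tension-bearing junctions. Its probe set 225807_at was below the floor on all arrays. The other 3 had signals between 85.1 and 163, not far above the floor. The cultures overlapped in 225806_at and 243446_at, while 1553764_a_at read 104 and 85.1 in 3D against 114 and 109 in 2D (ARHGAP8 line and empty-vector line in that order), without overlap. The log2 ratios of 225806_at, 1553764_a_at and 243446_at were -0.15, -0.24 and 0.00, with adjusted p-values of 0.838, 0.657 and 0.997 in limma.

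YAP1 itself was read by 3 probe sets well above the floor. Probe set 224894_at read 1139 on the ARHGAP8 3D array and 1393 on the empty-vector 3D array, against 1333 and 1369.8 on the ARHGAP8 and empty-vector 2D arrays. Its cultures overlapped, and its log2 ratio was -0.10 with a 95% interval of -0.45 to 0.25. Probe set 224895_at read 828 and 1247 in 3D against 1037 and 1108 in 2D (ARHGAP8 line and empty-vector line in that order), a log2 ratio of -0.08 with an interval of -0.44 to 0.29. Probe set 213342_at read 396 and 469.9 in 3D against 589 and 526 in 2D, a log2 ratio of -0.37 with an interval of -0.76 to 0.02. The ARHGAP8 3D array was the lowest of the 4 in all 3 probe sets.

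WWTR1 gave no common direction. Probe set 202133_at read 1934 and 2088 in 3D against 1665 and 1373 in 2D (ARHGAP8 line and empty-vector line in that order) and was higher by 0.41 ± 0.17 on the log2 scale. Probe set 202134_s_at read 865 and 909 in 3D against 1134 and 1179.6 in 2D, a log2 ratio of -0.38 ± 0.16. In each of them the cultures did not overlap, the directions were opposite, and the adjusted p-values of 0.221 and 0.223 in limma did not pass. The last probe set, 202132_at, read 494 and 486 in 3D against 513 and 448 in 2D, with a log2 ratio of 0.03. How these probe sets lie on the WWTR1 transcripts was not analysed here.

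TEAD1, the DNA-binding partner, was read best by 224955_at, at 828 and 836 in 3D against 1112 and 979.8 in 2D (ARHGAP8 line and empty-vector line in that order). Both 3D arrays lay below both 2D arrays, and the log2 ratio of -0.33 ± 0.16 had an adjusted p of 0.313 in limma. Its probe set 214600_at was dim, at 48.7 and 86.9 in 3D against 138 and 82.8 in 2D, and 1553322_s_at was above the floor on 1 array only, with 75.7 on the ARHGAP8 3D array.

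**Figure D2:**
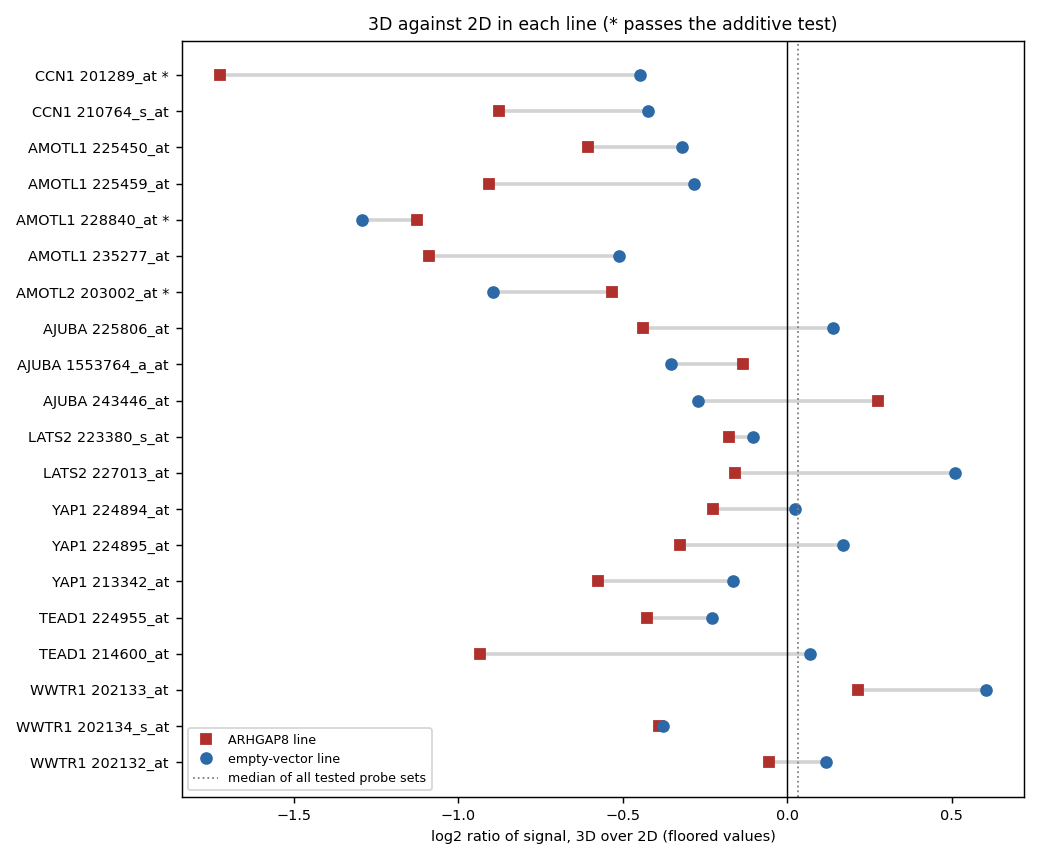
Log2 ratio of 3D over 2D signal (horizontal axis) for the 20 tested member probe sets, with the ARHGAP8 line as squares and the empty-vector line as circles; an asterisk marks a probe set that passed the additive test. The CCN1, AMOTL1 and AMOTL2 probe sets lie left of 0 in both lines, from -1.72 to -0.28. The widest gap between the lines is that of CCN1 201289_at, followed by that of TEAD1 214600_at.

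Of the 26 member probe sets, 20 were above the floor on at least 2 arrays and were tested. Among them 3 passed as lower in 3D and 0 as higher. Over all 28651 probe sets tested, 1.87% passed as lower and 1.63% as higher. The direction was the same in both lines for 12 lower and 1 higher of the 20, where 28% of all tested probe sets were lower in both lines and 32.8% higher in both. The median log2 ratio of the 20 was -0.43 in the ARHGAP8 line and -0.25 in the empty-vector line, beside 0.04 and 0.00 over all tested probe sets. Since a probe set can enter the test through its 2D signals alone, the same counts were taken over the 17 that were above the floor on all 4 arrays, of which 10 were lower in both lines and 1 higher in both, beside 30.1% and 32.8% of the 22638 probe sets that met the same filter. Of the 17, 2 had passed as lower and 0 as higher, beside 1.92% and 1.74% of the 22638. The genes were chosen with earlier results of these arrays known, so these shares describe them and are no test. In the ARHGAP8 line 3 of 21 member probe sets above the floor on either array were at least 2-fold lower in 3D, namely CCN1 201289_at and AMOTL1 228840_at and 235277_at, beside 1.92% of all, and 0 were at least 2-fold higher, beside 2.06%. In the empty-vector line 1 of 20 was at least 2-fold lower, AMOTL1 228840_at, beside 1.31% of all, and 0 were higher, beside 1.71%.

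Other genes of the pathway were taken from 3 lists that also hold the members. They were a signature of YAP targets, the Hippo kinases and upstream regulators, and the YAP and TEAD proteins with their cofactors. Outside the 10 members these lists name 44 genes, of which 34 were tested in 89 probe sets. In 3D 3 genes passed as lower, in 1 probe set each, and 0 as higher. That is 3.37% of the 89 probe sets, beside 1.87% lower and 1.63% higher over all tested probe sets. It is 8.82% of the 34 genes, beside 3.16% of all tested genes with a probe set that passed as lower. The median log2 ratio was -0.05, against 0.03 over all tested probe sets. PTPN14, the phosphatase introduced above, read 189 and 296 in 3D against 656 and 458 in 2D (ARHGAP8 line and empty-vector line in that order) in its probe set 244533_at. The cultures did not overlap, and it fell by 1.21 ± 0.24 on the log2 scale, with an adjusted p of 0.0127 in limma. Without the ARHGAP8 2D or the ARHGAP8 3D array its ratio is -0.63, and without either empty-vector array it is -1.79. That gap between the lines also enters the moderated SE as error, through the 1 residual degree of freedom. Its other 3 probe sets had log2 ratios of -0.31, -0.78 and -0.66 and did not pass. In the first of these, 226282_at, the brightest for PTPN14, the lines went opposite ways, at -0.83 in the ARHGAP8 line and 0.21 in the empty-vector line. The remaining PTPN14 probe sets were lower in 3D in both lines. FRMD6, a FERM-domain protein of the upstream Hippo complex, read 325 and 324 in 3D against 616 and 519 in 2D in 225464_at and fell by 0.80 ± 0.18, with an adjusted p of 0.0260 in limma, while its brighter probe set read -0.25 and did not pass. MAP4K4, a kinase that can phosphorylate LATS proteins, read 280.4 and 273 in 3D against 492 and 436 in 2D in 206571_s_at and fell by 0.74 ± 0.19, with an adjusted p of 0.0459 in limma. Its other 4 probe sets lay between -0.48 and 0.28 and did not pass.

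By list, 3 of 40 tested probe sets of the YAP target signature passed as lower, those of CCN1, AMOTL2 and PTPN14, and 0 as higher. Beside them stand 1.87% lower and 1.63% higher over all tested probe sets. Of the kinases and upstream regulators 5 of 61 passed as lower and 0 as higher, and of YAP, TEAD and their cofactors 0 of 15 passed in either direction. These lists share genes, so their counts are not separate evidence. Their median log2 ratios were -0.07, -0.11 and -0.13.

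**Figure D3:**
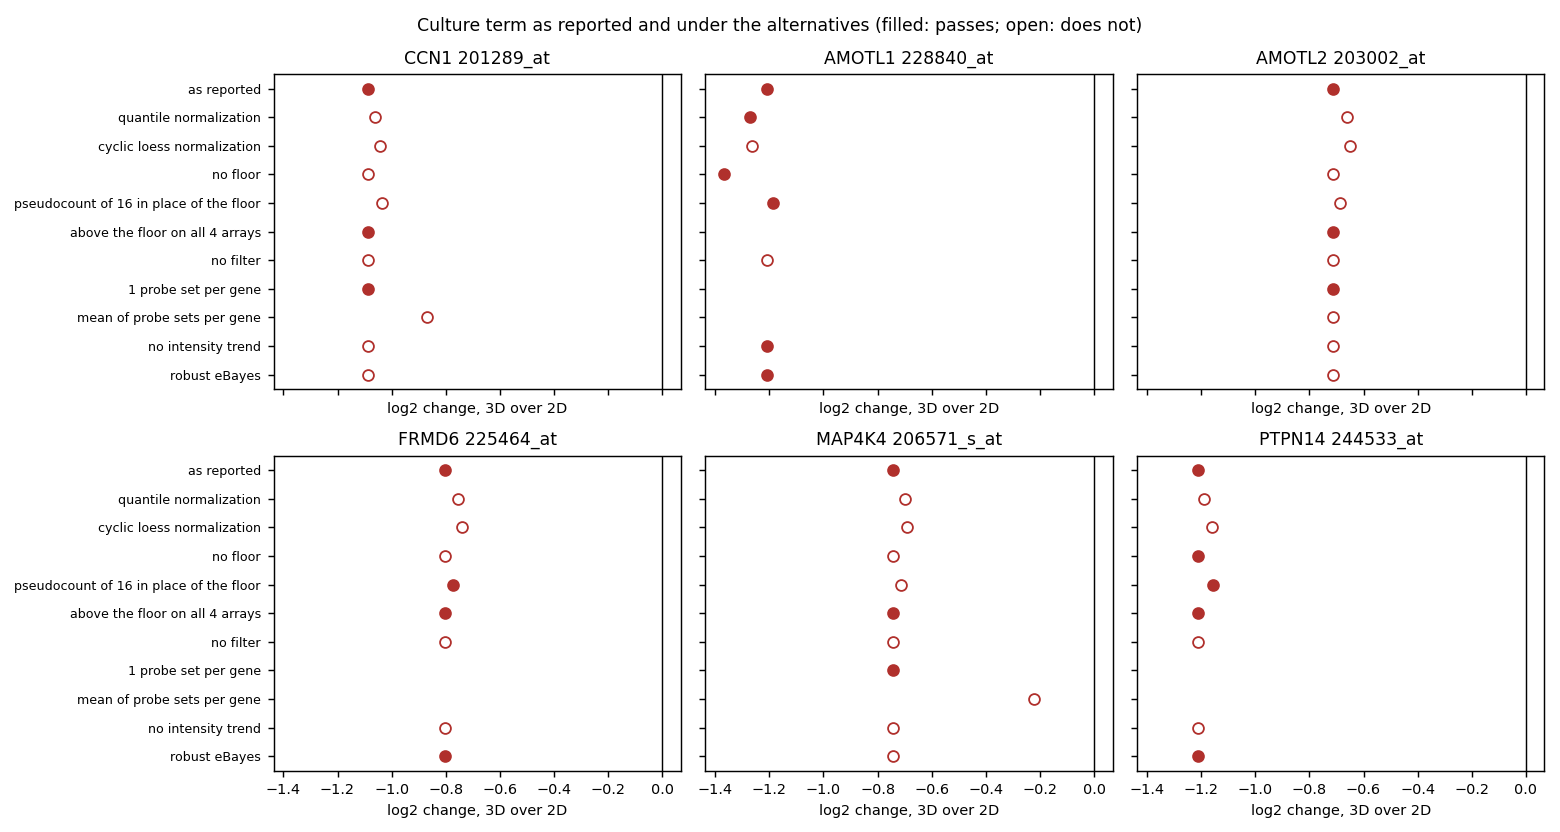
Log2 change of 3D over 2D for the 6 probe sets of members and pathway genes that passed, as reported (top row of each panel) and under the alternative settings that kept the probe set, with filled points passing the adjusted p threshold and open points not; the point for the mean of probe sets per gene is the gene's value. Every point lies below 0, and no panel is filled throughout.

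The direction of these 3 members was kept under every setting that fitted them, and their calls were not. CCN1 201289_at passed under 2 of the 9 other settings that fitted the probe set itself, with log2 changes from -1.09 to -1.04 and adjusted p-values in limma from 0.00624 to 0.976. As a mean of its probe sets the gene was at -0.87 (limma, adjusted p 0.154). AMOTL2 also passed under 2 of 9, with log2 changes from -0.71 to -0.65 and adjusted p-values in limma from 0.0184 to 0.794. AMOTL1 228840_at passed under 5 of the 7 settings that fitted it, with log2 changes from -1.37 to -1.19 and adjusted p-values in limma from 0.0253 to 0.860. As a mean of its probe sets AMOTL1 was at -0.77 (limma, adjusted p 0.112). Of the pathway genes outside the members, PTPN14 passed under 4 of 8, FRMD6 under 3 of 8 and MAP4K4 under 2 of 9, with MAP4K4 at -0.22 when its probe sets were averaged.

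The second comparison set the line labelled ARHGAP8 against the line with the empty vector. No member passed, and the gap that stood out by size was CCN1 on plastic. There its probe set 201289_at read 719 in the ARHGAP8 line and 309 in the empty-vector line, 2.33-fold higher, and 210764_s_at read 390.5 and 240.4, 1.62-fold higher. In gel the same probe sets read 218 and 213 in the ARHGAP8 line and 227 and 179 in the empty-vector line, 0.961-fold and 1.19-fold. CCN1 201289_at was the only 1 of 20 member probe sets at least 2-fold apart in 2D, where 0.247% of all probe sets reached that size as higher and 0.281% as lower. In 3D 0 of 20 were, beside 1.51% higher and 1.42% lower among all.

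Averaged over the cultures, CCN1 had log2 ratios of 0.58 ± 0.26 and 0.47 ± 0.23 (moderated SE, 4 arrays) in its probe sets 201289_at and 210764_s_at, with adjusted p-values of 0.678 and 0.728 in limma. AMOTL2 was higher in the ARHGAP8 line in both cultures, by 0.52 in 3D and 0.16 in 2D, but missed the threshold (limma, adjusted p 0.767). The YAP1 probe sets 224894_at and 224895_at were lower in both cultures, at -0.29 and -0.59 in 3D and -0.04 and -0.10 in 2D, and missed it too (limma, adjusted p 0.929 and 0.742). TEAD1 224955_at was at -0.01 in 3D and 0.18 in 2D. WWTR1 202133_at was at -0.11 and 0.28, and LATS2 223380_s_at at -0.23 and -0.16.

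**Figure D4:**
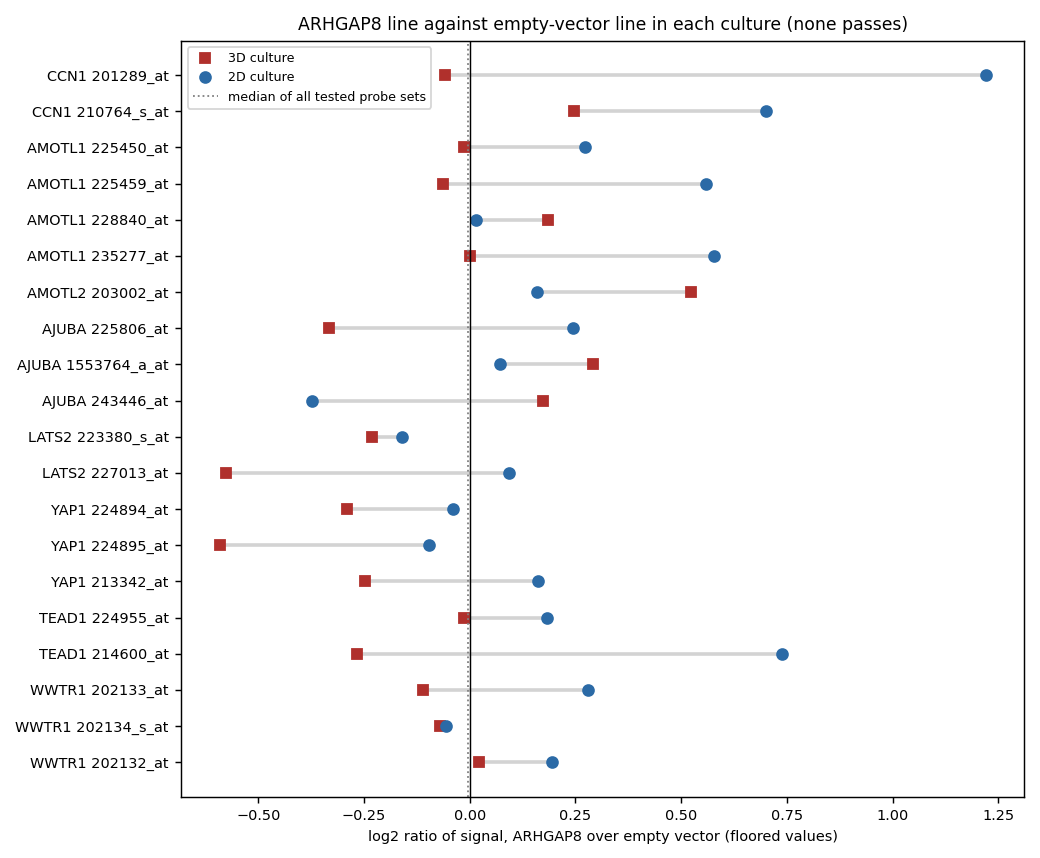
Log2 ratio of ARHGAP8 over empty-vector signal (horizontal axis) for the 20 tested member probe sets, with 3D culture as squares and 2D culture as circles. Of the circles 15 lie right of 0, up to 1.22 for CCN1 201289_at, while 13 of the squares lie left of 0.

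Of the 20 tested member probe sets, 15 were higher and 5 lower in the ARHGAP8 line in 2D, while in 3D 6 were higher, 13 lower and 1 at the floor on both sides. The medians were -0.06 in 3D and 0.17 in 2D, beside 0.00 in each culture over all tested probe sets. Higher in both cultures were 5 of the 20 and lower in both 4, where 24.5% and 25.4% of all tested probe sets were. The additive test in limma passed 0 probe sets on the whole array for the plasmid, 0% in either direction, with 2024 under an unadjusted p of 0.05, among them 1 of the members, CCN1 201289_at. Other settings passed 28, 17 or 1 probe sets or genes in all, none of them a member or a gene of the pathway lists. Of the pathway genes outside the members 0 of 34 passed, with a median log2 ratio of 0.04. The 95% interval of the plasmid term ran from 0.03 to 1.13 for CCN1 201289_at and from -0.51 to 0.18 for YAP1 224894_at, so changes of that size are not excluded. Since each plasmid is represented by 1 line, an effect of ARHGAP8 and any other difference between the lines cannot be told apart.

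The third comparison set the difference between the lines in gel against that on plastic, which with 1 array per group has no test. For CCN1 201289_at the log2 ratio of the lines was -0.06 in 3D and 1.22 in 2D, a difference of -1.28, and for 210764_s_at it was 0.25 and 0.70, a difference of -0.45. The larger difference thus rests on the high signal of the ARHGAP8 2D array in 1 of the CCN1 probe sets. TEAD1 214600_at differed by -1.003, with -0.27 in 3D, where the ARHGAP8 array was at the floor, and 0.74 in 2D. The bright TEAD1 probe set 224955_at differed by -0.20. Of the angiomotin genes AMOTL1 225450_at differed by -0.29 and AMOTL2 by 0.36.

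The genes whose pattern over the 4 arrays came closest to CCN1 201289_at were sought by the root mean square distance of log2 deviations from each gene's own mean, over 18715 probe sets that name 1 other gene and were above the floor on all arrays. They were DKK1, a secreted Wnt antagonist, at a distance of 0.19, TPM1, the tropomyosin 1 gene, also at 0.19, and ASF1A, a histone chaperone gene, at 0.21. DKK1 read 96.2 and 134 in 3D against 429 and 189 in 2D, and TPM1 read 536 and 444 in 3D against 1349 and 783 in 2D (ARHGAP8 line and empty-vector line in that order). Each had its highest signal on the ARHGAP8 2D array, as CCN1 had. They were chosen for likeness to that pattern on the same arrays, so the shared peak is no separate result. For YAP1 224894_at, whose signals varied little, the closest were TMEM248, QRSL1 and GOSR2, at distances of 0.0045 to 0.0065. CCN2 has no such list, since its probe set was below the floor.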

How the data were processed

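RNA of 4 M14 cultures was measured on 1 Affymetrix array each. The deposited values are linear intensity signals, 1 for each probe set. Per the submitters' processing notes they come from MAS5; its version is not given in the sources used here, and no detection calls were used. Each array was rescaled to a common trimmed mean (2% from each end), signals under 72.3 were set to that floor, the median of all scaled values without the 62 control probe sets, and log2 was taken. Symbols come from the platform annotation, updated by gene identifier through a RefSeq gene table; 41091 probe sets name 1 gene, 1801 several and 11721 none. Every non-control probe set above the floor on at least 2 arrays was fitted in limma 3.58.1 (R 4.3.3) with plasmid and culture as additive terms, eBayes with an intensity trend, two-sided, Benjamini-Hochberg adjustment over all 28651 and a threshold of 0.05. The fit has 1 residual degree of freedom and 13.9 prior ones, so each moderated SE draws mostly on other probe sets of like signal, and an interaction between plasmid and culture counts as error. Ratios of 2 arrays carry no test, and a ratio against a floored side is a bound. All members were named, with up to 14 passing genes of the pathway lists and, for CCN1, CCN2 and YAP1, the 3 genes closest in pattern. The members and lists were chosen with earlier results of these data known. Alternatives covered scaling, floor, filter, the unit fitted, the variance model and leaving out each array. Levels of different probe sets are not compared.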

Additional observations from a re-analysis of the deposited data

Results flagged for a closer look

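CCN1 201289_at stood out because the ratio of the ARHGAP8 line over the empty-vector line went opposite ways in the cultures, -0.06 in 3D and 1.22 in 2D, a log2 difference of -1.28 that was not tested. The 3D value is smaller than the moderated SE of 0.26 of the plasmid term, and the other CCN1 probe set, 210764_s_at, was higher in the ARHGAP8 line in both cultures, at 0.25 and 0.70. The line ratio of TEAD1 214600_at also went opposite ways, at -0.27 in 3D and 0.74 in 2D, a difference of -1.003 that was not tested and that is bounded by the floor on the ARHGAP8 3D array. Among the control probe sets, which no comparison used, the median signal on the ARHGAP8 3D array was 626 for 18S ribosomal RNA and 1389.8 for 28S ribosomal RNA, against at most 49.4 and 119 on the other 3 arrays.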

How the results depend on the processing

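The culture calls depended on the processing. Against 3 member probe sets passing as reported, 1 passed after quantile normalization, without a floor, without the intensity trend and with robust eBayes, and 0 after cyclic loess normalization, without a filter and with the mean of probe sets per gene. With the pathway lists added, 6 passed as reported, 1 after quantile normalization and without the trend, 2 without a floor, 3 with robust eBayes, and 0 after cyclic loess, without a filter and with the mean per gene. Over the whole array 1001 passed for culture, against 509 after quantile normalization, 588 without a floor, 360 without the trend, 37 genes with the mean per gene, and 0 after cyclic loess and without a filter, where 4199 and 3266 were under an unadjusted p of 0.05 in limma. For the plasmid 0 passed as reported, 28 among probe sets above the floor on all 4 arrays, 17 with 1 probe set per gene and 1 with robust eBayes. The count of member probe sets whose line ratio differed by at least 1 between cultures with opposite signs was 2, and 1 after cyclic loess. In the refits the sign changed for 4 values that had not passed: AJUBA 243446_at for culture at -0.091 after quantile and -0.10 after cyclic loess normalization, AJUBA 225806_at for the plasmid and LATS2 223380_s_at for culture at 0.0094 and 0.0091 with the mean per gene, and TEAD1 214600_at for the plasmid at -0.049 without a floor and -0.014 with a pseudocount of 16. The cause of these changes was not tested. Leaving out an array leaves 1 ratio per term and no test, and the log2 change of CCN1 201289_at for culture then ran from -1.72 to -0.45. Of 46 member and pathway values 18 changed sign on leaving out an array, none of which had passed, among them CCN1 201289_at for the plasmid at -0.06, TEAD1 214600_at and YAP1 224895_at for culture at 0.07 and 0.17, and PTPN14 244533_at for the plasmid at 0.52. No paired analysis was possible because each group has 1 array and the replicate number 1 is only a name, so numbers pair nothing beyond the lines, within which the additive fit already compares the cultures. Signals below the floor limit what can be said of CCN2 and ANKRD1.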
